A study of Mus musculus with 12 samples.

Results

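The AP-1 transcription factors were followed here in mouse lungs injured by mechanical ventilation. The members are 10 genes, the Fos genes Fos, Fosb, Fosl1 and Fosl2, the Jun genes Jun, Junb and Jund, the stress factor gene Atf3, and the small Maf genes Maff and Mafk. They were chosen by name, as the genes whose symbol the platform annotation gives to a probe set, and 14 of the 45037 probe sets carry these symbols. Each of the 10 genes had a probe set that passed the filter on dim signal, among 10996 genes tested in all. Gene expression was measured on 12 single-colour arrays of lung RNA from mice aged 8 to 12 weeks, 3 mice in each of 4 groups. The first group was GADD45-/- mice with ventilator-induced lung injury (VILI), for which they were ventilated over 4 hours with 65 breaths per minute of 30 ml/kg each, and the second was wild type mice with the same VILI. The third was GADD45-/- mice under the treatment labelled SB, which the labels do not spell out, and the fourth was wild type mice under SB. The series title names Gadd45a as the gene, some labels of the VILI samples write the genotype as GADD-/-, and neither strain nor sex is given in the sources used here.

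AP-1 is a dimer of basic leucine zipper proteins. Fos proteins pair with Jun proteins and bind a short palindromic DNA site, while Jun proteins can also pair among themselves or with members of the ATF group such as Atf3. Small Maf proteins share the zipper but have no activation domain of their own, and they pair with each other, with Fos proteins or with larger partners such as Nrf2. Many genes of the group are immediate early genes, which are transcribed within minutes of stretch, injury or growth factor signals because their activators are already present in the resting cell. In lung tissue such stimuli act on epithelium, endothelium and leukocytes alike, and in RNA of whole lung more cells of a type and more RNA per cell cannot be told apart.

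The arrays had medians over all probe sets of 4.36 to 4.58 on the log2 scale, and the correlation between arrays within a group was 0.963 to 0.995. Gadd45a read 4.58 to 6.15 on the 6 knockout arrays and 8.62 to 10.3 on the 6 wild type arrays. Averaged over genotypes, VILI raised 8 of 8 measured neutrophil markers (10 listed) and 1 of 7 macrophage and monocyte markers, and lowered 6 of 8 endothelial markers and 7 of 7 club and ciliated cell markers. The mean level of the neutrophil markers was 9.56 to 11.04 in knockout VILI against 6.79 to 7.42 in knockout SB, and 9.29 to 10.4 in wild type VILI against 6.29 to 6.97 in wild type SB. The part of these cell types in the changes of the AP-1 genes was not tested. Values are the authors' log2 expression values, the number of arrays limits the precision, and no level of 1 probe set is set against that of another.

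VILI raised 4 of the 10 AP-1 genes when its effect was averaged over the genotypes. The mean of Fosl1 was at least 3.58-fold higher, a bound given because it was dim on all SB arrays, which leaves out the spread between arrays. Atf3 was 5.55-fold higher, Mafk 1.52-fold and Jun 1.38-fold, and 0 of the 10 fell, as 9.39% of all genes did. Over all genes tested, 8.42% passed the threshold as higher in this comparison, so the members' count is to be read against that share. Fosl1 passed the filter only through the arrays where it was high and had to differ, so its call adds no support to that count. The threshold was an adjusted p of 0.05 in limma, a linear model with a variance estimate shared among genes, with Benjamini-Hochberg adjustment over all genes. All 10 differences were positive, with a median of 0.80, against -0.03 for all genes. At an unadjusted p under 0.05, 6 of the 10 passed, against 33.9% of all genes. Fosl1 is in these counts and in the median as well. Most members also shared much of their spread on single arrays, as given below, so the members are not separate observations. The 4 calls held in each of the 19 other fits, 12 of which left out 1 array, with adjusted p of 0.000858 to 0.0142 for Fosl1, 0.000913 to 0.0419 for Atf3, 0.00345 to 0.0227 for Jun and 0.0113 to 0.0422 for Mafk.

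**Figure D1:**
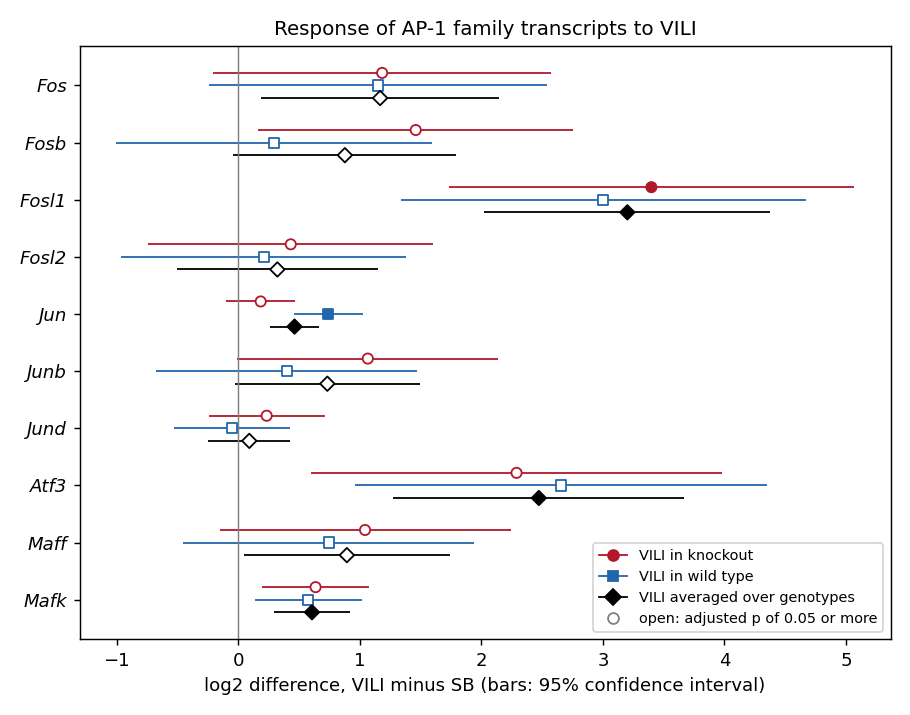
Log2 difference between VILI and SB for the 10 AP-1 genes in knockout lungs, in wild type lungs and averaged over both, with 95% confidence intervals from limma; filled symbols passed the threshold. Atf3 (2.47 averaged) lies right of 0 in both genotypes, the Fosl1 values depend on SB arrays below their medians and are not exact sizes, and the intervals of Fosl2 and Jund span 0 in each of the 3 comparisons.

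Fosl1 encodes Fra-1, a Fos protein that lacks the strong activation domain of Fos and accumulates after sustained growth factor or stress signalling. Its probe set, 1417487_at, read 5.13, 8.18 and 6.01 in knockout VILI lungs against 2.53, 4.06 and 2.52 in knockout SB lungs. It read 5.54, 6.05 and 6.86 in wild type VILI lungs against 2.54, 4.35 and 2.55 in wild type SB lungs. Every VILI array lay above every SB array of both genotypes, and among SB arrays the second replicate of each genotype was the high one. The SB arrays were all below their own medians, so the sizes are given as bounds with each SB array's median in place of its value, a floor chosen after the values were seen: VILI was at least 3.89-fold higher in knockout, 3.29-fold in wild type and 3.58-fold averaged. The fitted differences, which depend on the dim SB values, were 3.40 in knockout (SE 0.76, limma adjusted p = 0.0306), 3.00 in wild type (SE 0.76, adjusted p = 0.0601) and 3.20 averaged (SE 0.54, adjusted p = 0.00346). The 6 arrays above their own median, through which the gene passed the filter, were the 6 VILI arrays, so that passing the filter and being high after VILI are not separate observations. The knockout call was lost without knockout SB replicate 1 (adjusted p = 0.0982) or 3 (0.0742), without knockout VILI replicate 2 (0.102) or 3 (0.0647), without wild type VILI replicate 2 (0.0512), with no filter (0.0624) and with only the 6 knockout arrays (0.130). The other probe set of Fosl1, 1417488_at, did not pass the filter. It read 5.58 in knockout VILI replicate 2 and 3.58 in wild type VILI replicate 3, the arrays that were also highest in their groups for the first probe set, and 1.92 to 2.04 on the remaining 10.

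Fos, the founding member and a classical marker of recent stimulation, read 11.42, 12.89 and 12.85 in knockout VILI lungs (probe set 1423100_at) against 10.67, 12.50 and 10.45 in knockout SB lungs. Wild type lungs read 12.60, 12.34 and 12.13 after VILI against 10.25, 12.50 and 10.87 under SB. The groups overlapped in both genotypes because replicate 2 of each SB group lay within the range of the VILI arrays. The difference was 1.18 in knockout (SE 0.63, limma adjusted p = 0.299), 1.15 in wild type (SE 0.63, adjusted p = 0.324) and 1.17 averaged (95% interval 0.19 to 2.15, adjusted p = 0.0914). Without wild type SB replicate 2 the average was 1.49 (adjusted p = 0.0344), without knockout SB replicate 2 it was 1.49 (adjusted p = 0.0296) and without knockout VILI replicate 1 it was 1.41 (adjusted p = 0.0497), each past the threshold.

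Fosb, another immediate early gene with a strong activation domain, was dim: its only probe set, 1422134_at, exceeded the array's median on 3 of the 12 arrays and passed the filter through them. Knockout lungs read 4.27, 5.04 and 4.03 after VILI against 2.87, 3.22 and 2.87 under SB. Wild type lungs read 4.23, 3.21 and 4.56 after VILI against 2.88, 5.34 and 2.89 under SB. The knockout groups did not overlap and the wild type groups did, with wild type SB replicate 2 the highest of the 12 arrays. Only 1 of 3 knockout VILI arrays and 0 of 3 knockout SB arrays exceeded their medians, and 1 of 3 in each wild type group, so no fold is given. The fitted difference, which depends on dim values, was 1.46 in knockout (95% interval 0.16 to 2.76, limma adjusted p = 0.176) and 0.29 in wild type (-1.003 to 1.59, adjusted p = 0.822). Without wild type SB replicate 2 the knockout difference passed, with an adjusted p of 0.0487, and the average was 1.29 with an adjusted p of 0.0132, where the SD of wild type SB with that array was 1.42.

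Fosl2, which encodes Fra-2, the other Fos protein without a strong activation domain, had the smallest differences of the 4 Fos genes in both genotypes. Probe set 1437247_at read 11.36, 12.20 and 11.81 in knockout VILI lungs against 11.58, 12.25 and 10.25 in knockout SB lungs. It read 11.18, 11.12 and 11.91 in wild type VILI lungs against 10.48, 12.33 and 10.77 in wild type SB lungs. The groups overlapped throughout. The averaged difference was 0.32 (95% interval -0.51 to 1.15, limma adjusted p = 0.588). The other probe set, 1422931_at, did not pass the filter and read 1.98 to 4.79.

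**Figure D2:**
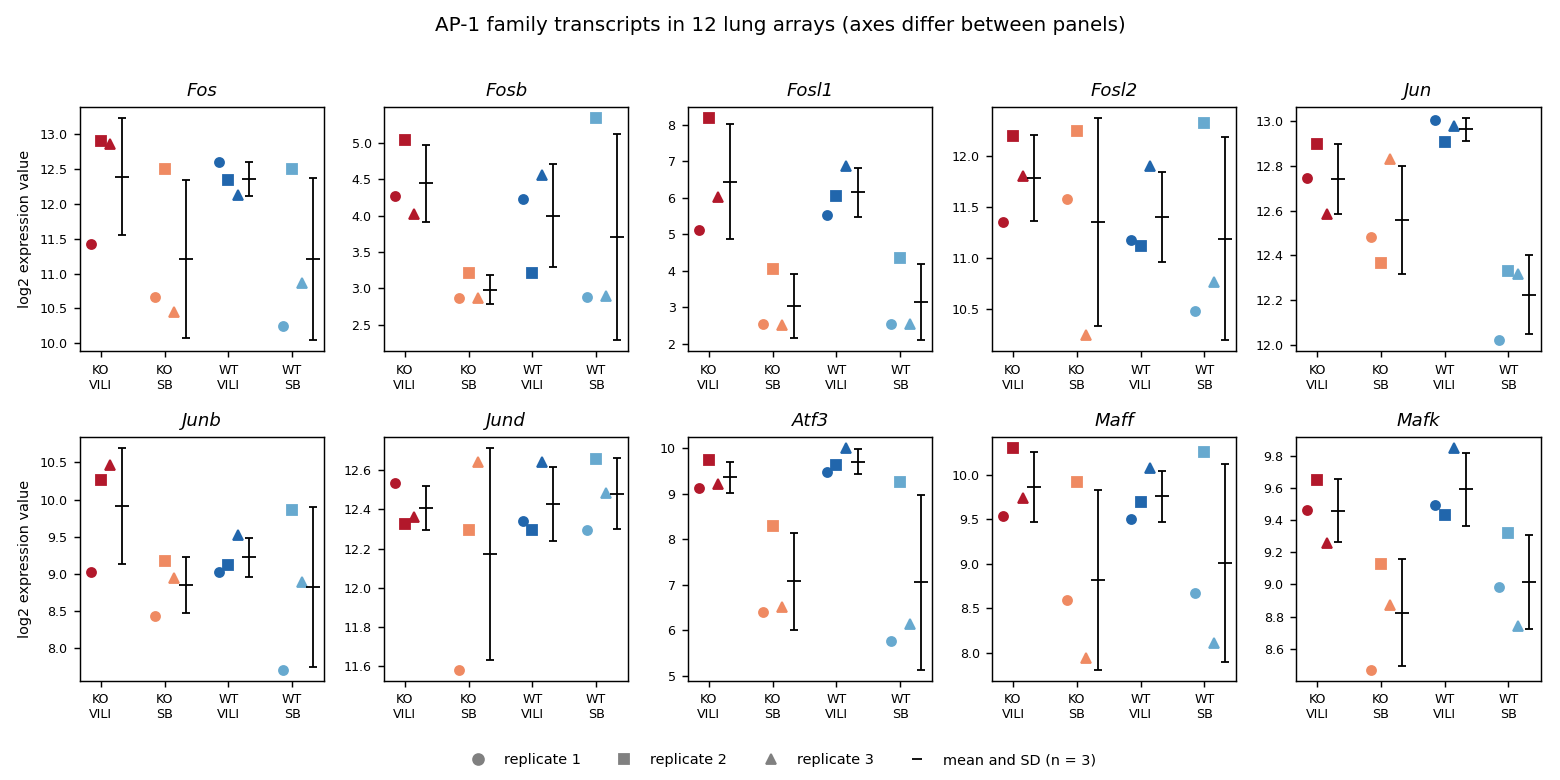
Log2 expression values of the probe set that stands for each AP-1 gene on the 12 arrays, by group, with the shape of a point giving the replicate number and a bar the mean and SD of 3 arrays; axes differ between panels. For Fosl1, Atf3 and Mafk each VILI array lies above each SB array of its genotype, and the square of wild type SB, replicate 2, is the highest of its group in all 10 panels.

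Jun, the founding partner of Fos, is also a target of its own protein: variant AP-1 sites in the Jun promoter are known to bind Jun paired with Atf2. The promoter windows of the 3 risen genes that the RefSeq promoter table (build GRCm38.p6) holds, Jun, Atf3 and Mafk, are shown so that such sites can be seen beside the values. Fosl1 has no entry in it. Each window runs from 250 bases before the annotated start to 50 bases from it, 5′ to 3′ on the strand of the gene, with matches to the motifs searched in capitals.
Jun, chr4:95052173-95052472, minus strand: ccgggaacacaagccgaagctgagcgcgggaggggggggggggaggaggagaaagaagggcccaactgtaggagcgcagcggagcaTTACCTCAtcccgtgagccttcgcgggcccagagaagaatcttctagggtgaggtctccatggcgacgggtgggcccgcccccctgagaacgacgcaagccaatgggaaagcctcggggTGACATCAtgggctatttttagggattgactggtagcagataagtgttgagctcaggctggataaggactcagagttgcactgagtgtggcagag
Atf3, chr1:191183284-191183583, minus strand: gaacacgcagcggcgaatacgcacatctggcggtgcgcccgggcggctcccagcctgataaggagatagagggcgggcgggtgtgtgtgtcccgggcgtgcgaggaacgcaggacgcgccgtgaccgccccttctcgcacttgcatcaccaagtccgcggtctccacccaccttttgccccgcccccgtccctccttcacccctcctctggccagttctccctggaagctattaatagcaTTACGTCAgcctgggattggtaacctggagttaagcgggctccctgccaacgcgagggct
Mafk, chr5:139791286-139791585, plus strand: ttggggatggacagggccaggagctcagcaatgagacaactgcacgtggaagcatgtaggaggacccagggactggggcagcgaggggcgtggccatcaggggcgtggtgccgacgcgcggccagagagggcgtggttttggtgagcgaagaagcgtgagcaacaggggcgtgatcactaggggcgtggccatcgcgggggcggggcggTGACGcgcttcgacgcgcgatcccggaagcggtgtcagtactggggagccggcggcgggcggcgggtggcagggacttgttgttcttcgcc
The motifs searched, on both strands, were the AP-1 site TGANTCA, the cyclic AMP response element (CRE) TGACGTCA, the variants TGACATCA, TTACCTCA and TTACGTCA, and the short site TGACG, which is contained in the CRE and, on the opposite strand, in TTACGTCA. Jun held TTACCTCA at -164 to -157 and TGACATCA at -45 to -38, counted from the start as +1, letters found in 0.889% and 3.62% of all 32851 windows. Atf3 held TTACGTCA at -10 to -3, found in 0.499% of windows, and Mafk held the short site at -41 to -37, found in 20.8%. Among the other members' windows, Maff, with 3 annotated starts, held the CRE (1.79% of all windows) before its second start and TGACATCA before the third, at the same distance of -45 to -38 as in Jun. The short site was found in windows of Fos, Fosb, Junb, Atf3, Maff and Mafk, 6 of the 9 genes with an entry. The AP-1 site itself, present in 7.81% of all windows, was found in 0 of the 11 windows of the members. The motifs were picked with these sequences in view, and a match is a stretch of letters and not evidence of binding.

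Jun transcripts rose after VILI in wild type and on average over the genotypes. Probe set 1417409_at read 13.00, 12.91 and 12.98 in wild type VILI lungs against 12.02, 12.33 and 12.32 in wild type SB lungs, with no overlap. It read 12.74, 12.90 and 12.59 in knockout VILI lungs against 12.48, 12.36 and 12.83 in knockout SB lungs, where the groups overlapped. The difference was 0.74 in wild type (SE 0.13, limma adjusted p = 0.0206), 0.18 in knockout (SE 0.13, adjusted p = 0.436) and 0.46 averaged (SE 0.09, adjusted p = 0.00784). The wild type call was lost without wild type SB replicate 3 (adjusted p = 0.0792) and without wild type VILI replicate 1 (0.0715), 2 (0.0810) or 3 (0.0565), at differences of 0.72 to 0.79. The other probe set of Jun, 1448694_at, read 11.80, 11.80 and 11.62 in knockout VILI against 11.44, 11.30 and 11.73 in knockout SB, and 11.96, 12.08 and 12.23 in wild type VILI against 11.45, 11.72 and 11.58 in wild type SB. Here too the wild type groups did not overlap and the knockout groups did. Tested among 23082 probe sets, it gave 0.51 in wild type (SE 0.12, adjusted p = 0.0616), 0.25 in knockout (SE 0.12, adjusted p = 0.286) and 0.38 averaged (SE 0.09, adjusted p = 0.0180).

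**Figure D3:**
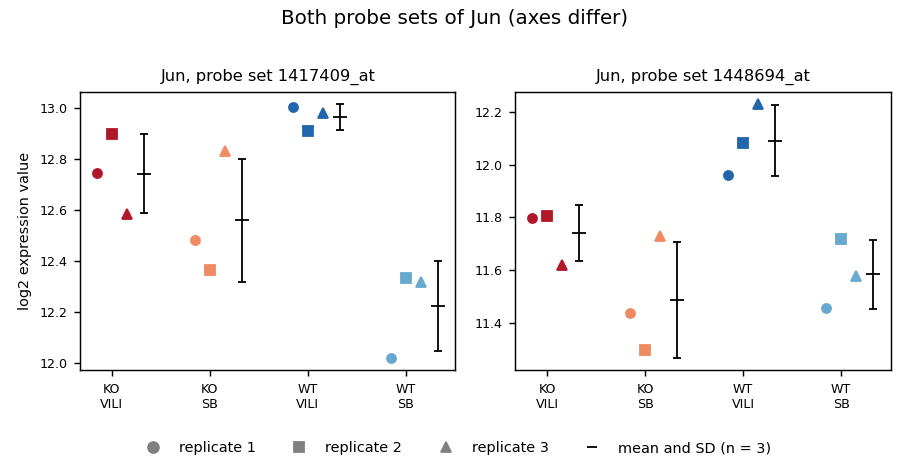
Log2 expression values of both Jun probe sets on the 12 arrays by group, with points for the arrays and bars for the mean and SD of 3. Wild type VILI is the highest group for both, at a mean of 12.96 and 12.09, while the knockout SB arrays lie above wild type SB for the first probe set (mean 12.56 against 12.22) and overlap it for the second (11.49 against 11.58).

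Junb and Jund are the more restrained Jun proteins, Junb being inducible and able to hold back Jun, and Jund being present in most resting cells. Junb (probe set 1415899_at) read 9.02, 10.26 and 10.47 in knockout VILI lungs against 8.44, 9.18 and 8.94 in knockout SB lungs, and 9.02, 9.12 and 9.52 in wild type VILI lungs against 7.71, 9.86 and 8.89 in wild type SB lungs. The groups overlapped in both genotypes, more so in wild type, where the spread of SB arrays was widest (SD 1.08). The difference was 1.07 in knockout (95% interval -0.01 to 2.14, limma adjusted p = 0.229), 0.40 in wild type (adjusted p = 0.681) and 0.73 averaged (adjusted p = 0.161). Jund (1449117_at) read 12.54, 12.33 and 12.36 in knockout VILI against 11.58, 12.29 and 12.64 in knockout SB, and 12.34, 12.30 and 12.64 in wild type VILI against 12.29, 12.66 and 12.48 in wild type SB. Its averaged difference of 0.09 had an interval of -0.25 to 0.43 (adjusted p = 0.717), so a rise of the size of the averaged Fosl1 or Atf3 change lies outside it. The other Jund probe set, 1440265_at, read 1.94 to 1.97 on the 12 arrays and passed no filter.

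Atf3 encodes a stress-induced factor that as a homodimer represses many of the genes it binds, inflammatory cytokine genes among them. Its probe set, 1449363_at, read 9.13, 9.74 and 9.21 in knockout VILI lungs against 6.40, 8.30 and 6.51 in knockout SB lungs. It read 9.48, 9.63 and 10.01 in wild type VILI lungs against 5.76, 9.26 and 6.13 in wild type SB lungs. The VILI arrays lay above the SB arrays in both genotypes, narrowly above replicate 2 of wild type SB, which stood far over the other arrays of its group. The difference was 2.29 in knockout (SE 0.77, limma adjusted p = 0.114), 2.66 in wild type (SE 0.77, adjusted p = 0.0895) and 2.47 averaged (SE 0.55, adjusted p = 0.0125). Without wild type SB replicate 2 both genotypes passed, with 2.29 in knockout (adjusted p = 0.0224) and 3.76 in wild type (adjusted p = 0.00827).

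Of the small Maf genes Mafk rose averaged over the genotypes and Maff did not pass the test. Mafk (probe set 1418616_at) read 9.46, 9.65 and 9.26 in knockout VILI lungs against 8.47, 9.13 and 8.87 in knockout SB lungs. It read 9.49, 9.43 and 9.85 in wild type VILI lungs against 8.98, 9.32 and 8.74 in wild type SB lungs. The groups did not overlap in either genotype. The difference was 0.64 in knockout (SE 0.20, limma adjusted p = 0.0968), 0.58 in wild type (SE 0.20, adjusted p = 0.136) and 0.61 averaged (SE 0.14, adjusted p = 0.0158). Maff (1418936_at), an inducible gene, read 9.54, 10.30 and 9.74 in knockout VILI against 8.60, 9.92 and 7.94 in knockout SB, and 9.51, 9.70 and 10.07 in wild type VILI against 8.67, 10.26 and 8.11 in wild type SB. Its groups overlapped through replicate 2 of each SB group. The difference was 1.04 in knockout (SE 0.55, adjusted p = 0.288), 0.74 in wild type (SE 0.55, adjusted p = 0.471) and 0.89 averaged (SE 0.39, adjusted p = 0.129), larger than that of Mafk in size and not past the threshold. The average passed without wild type SB replicate 2 (1.20, adjusted p = 0.0332) or knockout SB replicate 2 (1.17, adjusted p = 0.0430).

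Within single genotypes few members passed. In knockout lungs 1 of 10 rose, where 2.76% of all genes passed as higher. That member was Fosl1, which the filter kept only for its VILI arrays, and with no filter 0 of 10 passed, so nothing about the family is read from this count. In wild type lungs 1 of 10 rose, Jun, where the share was 1.36%. By array order, 4 of 10 members lay wholly above SB after VILI in knockout (Fosb, Fosl1, Atf3 and Mafk), against 12.9% of all genes, and 4 of 10 in wild type (Fosl1, Jun, Atf3 and Mafk), against 11.6%. Fosl1, Atf3 and Mafk did so in both genotypes, 3 of 10, against 6.01% of all genes. Fosl1 is in each of these counts by array order. As the filter kept it only for its VILI arrays, its place in them adds no support. Fosb is in the knockout count on dim values, with 1 of 3 knockout VILI arrays and 0 of 3 knockout SB arrays above their medians.

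The array spread behind these tests was itself shared by most of the AP-1 genes, by Jun and Jund less so. Pearson correlations of deviations from the group means over the 12 arrays were 0.43 to 0.92 among the other members. They were -0.21 to 0.50 for Jun and -0.07 to 0.63 for Jund. Replicate 2 of wild type SB was the highest array of its group for 10 of the 10 members, and that array was the highest of its group for 39.8% of all genes. For Jun the margin was narrow, 12.33 against 12.32 on replicate 3. Replicate 2 of knockout SB was the highest for 8 of the 10 members, all but Jun and Jund, against 30.1% of all genes. After VILI, knockout replicate 2 was the highest for 8 members (31.4% of genes) and wild type replicate 3 for 8 members (40.8%). The median deviation of the members from their group mean was 1.17 on wild type SB replicate 2 and 0.61 on knockout SB replicate 2, where the median over all genes was 0.03 and -0.02. On those SB arrays the mean level of heart muscle markers was the lowest of their groups, 10.7 against 11.1 and 11.3 on the other knockout SB arrays, and 9.39 against 11.4 and 11.9 on the other wild type SB arrays. On the VILI arrays where 8 members were highest, heart markers were the highest of their groups instead, 11.36 against 10.5 and 11.2 on the other knockout VILI arrays, and 12.3 against 10.1 and 10.4 on the other wild type VILI arrays. B cell markers were lowest on replicate 2 of both SB groups too, 6.79 against 7.53 and 10.2 in knockout SB, and 5.72 against 6.98 and 7.43 in wild type SB. T and NK cell markers (6.72 in knockout SB, 5.71 in wild type SB) and fibroblast and smooth muscle markers (11.51 and 11.95) were also lowest on replicate 2 of both SB groups. The B cell, T and NK cell, and fibroblast and smooth muscle markers were lowest on knockout VILI replicate 2 and wild type VILI replicate 3 too. They read 6.74 and 6.97, 6.52 and 6.23, and 11.39 and 11.91 on those arrays, in that order. Type I epithelial markers (12.68 and 12.93) and type II epithelial markers (13.44 and 13.45) were highest on replicate 2 of both SB groups. On those VILI arrays they were not highest, at 12.31 and 12.43 for type I and 13.16 and 13.10 for type II. Neutrophil markers read 7.19 on knockout SB replicate 2, between 6.79 and 7.42 on the others, and 6.85 on wild type SB replicate 2, between 6.29 and 6.97. The part of tissue composition or handling in the spread was not tested. Across groups the members differed in scatter: the highest SD of a group was 0.24 for Jun, 0.33 for Mafk and 0.54 for Jund, and 1.02 or more for the remaining 7, up to 1.92 for Atf3 in wild type SB.

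**Figure D4:**
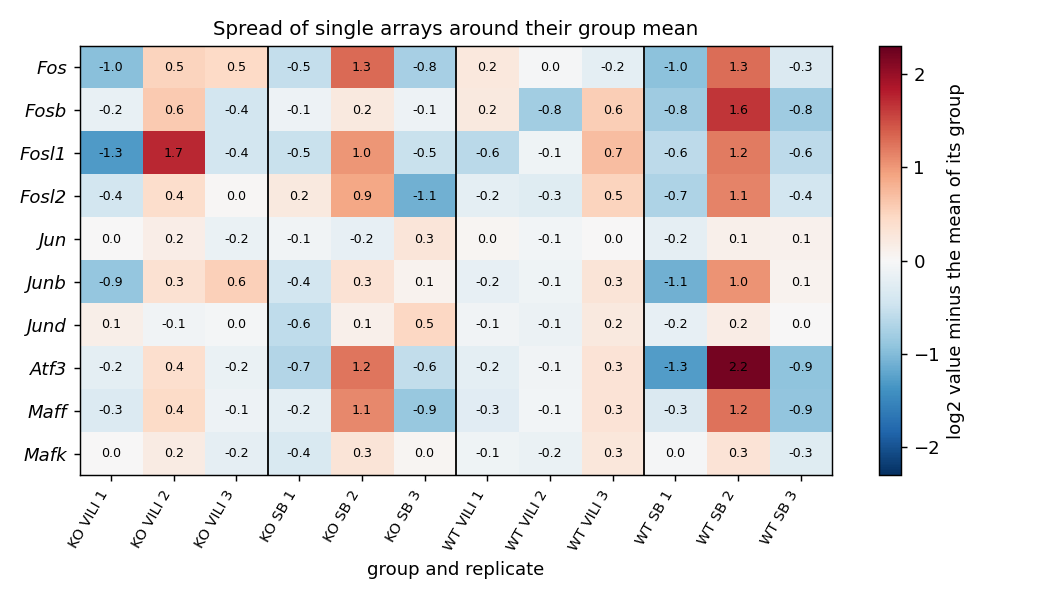
Each cell gives the log2 value of a member on 1 array minus the mean of its group, with groups separated by lines. The columns of knockout SB replicate 2 and wild type SB replicate 2 are positive for most members, with 2.21 for Atf3 on wild type SB replicate 2, and the rows of Jun and Mafk stay within 0.4 of 0.

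No member passed the test between knockout and wild type. Under SB, 0 of 10 members passed between knockout and wild type in limma, where 0.109% of all genes did, and 1 of 10 had an unadjusted p under 0.05 (10.1% of all genes). The differences ran from -0.72 for Fosb to 0.34 for Jun. After VILI, 0 of 10 passed, where 0.100% of genes did, and 0 of 10 had an unadjusted p under 0.05 (6.88% of genes), with differences of -0.35 for Atf3 to 0.70 for Junb. The intervals were wide for most members: for Fosl1 after VILI, the difference of 0.29 had a 95% interval of -1.37 to 1.96, and for Atf3 that of -0.35 had one of -2.04 to 1.35. These comparisons share their arrays with the VILI comparisons. The fit holds no pairing by replicate number, and with a block on that number 0 of 10 passed under SB. The test of whether the response to VILI differed between the genotypes passed for 0 of 10 members and 0% of all genes, and 1 of 10 members had an unadjusted p under 0.05, against 2.62% of all genes.

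That member was Jun. Its first probe set was higher in knockout than in wild type under SB on all arrays (12.56 ± 0.24 against 12.22 ± 0.18, SD, n = 3) and lower in knockout after VILI on all arrays (12.74 ± 0.16 against 12.96 ± 0.05, SD, n = 3). Both separations were narrow, with the nearest knockout and wild type arrays at 12.36 and 12.33 under SB and at 12.90 and 12.91 after VILI. Arrays not overlapping were found as higher in knockout for 3.76% of genes under SB and as lower in knockout for 8.13% after VILI. The knockout difference was 0.34 under SB (SE 0.13, limma adjusted p = 0.419) and -0.22 after VILI (SE 0.13, adjusted p = 0.760), and the response to VILI was lower in knockout by 0.56 (SE 0.18), at an unadjusted p of 0.0112 that did not pass adjustment. The second Jun probe set was lower in knockout after VILI on all arrays, with -0.35 (SE 0.12, adjusted p = 0.689), and overlapped under SB, with -0.10 (SE 0.12, adjusted p = 0.810). The probe sets therefore differ on the SB side and have the same sign after VILI.

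Other basic leucine zipper genes that can share the dimers responded in part. Of 18 measured on a list of 23, 6 rose and 1 fell averaged over genotypes, where 8.42% of all genes rose and 9.39% fell, with a median of 0.16 against -0.03 for all genes. Nfil3, a repressor related to the clock factors, rose by 2.37 (SE 0.64, limma adjusted p = 0.0280), Creb5 by 1.36 (adjusted p = 0.0143), Batf, which competes with Fos for Jun, by 1.33 (adjusted p = 0.0180) and Crem by 0.83 (adjusted p = 0.0254). Atf4, the effector of amino acid stress, rose by 0.78 (adjusted p = 0.0153) and Mafg, the small Maf gene outside the members, by 0.45 (adjusted p = 0.0179), while Creb1 fell by 0.40 (adjusted p = 0.0381). In knockout and in wild type taken alone, 0 of the 18 passed.

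Of 19 measured kinases and regulators upstream of AP-1 (24 listed), 3 rose and 0 fell on average, against 8.42% and 9.39% of all genes, with a median of -0.00154 against -0.03 for all genes. Map3k8, the kinase Tpl2 that feeds the ERK cascade, rose by 1.38 (SE 0.22, limma adjusted p = 0.00277). Srf, the factor that binds the serum response elements of Fos and other early genes, rose by 0.82 (adjusted p = 0.0188), and Map2k4, which activates the Jun kinases, by 0.31 (adjusted p = 0.0166). These are transcript levels and carry no information on kinase activity.

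Genes known as AP-1 targets moved mostly upward. Of 12 measured (20 listed), 7 rose and 1 fell on average, against 8.42% and 9.39% of all genes, with a median of 0.81 against -0.03 for all genes. They were Il6 at 3.64 (SE 0.56, limma adjusted p = 0.00235), the haem-degrading Hmox1 at 2.16 (adjusted p = 0.00552), tissue factor F3 at 1.37 (adjusted p = 0.00251), the gelatinase gene Mmp9 at 1.26 (adjusted p = 0.00245), the growth factor Hbegf at 1.08 (adjusted p = 0.000711), Timp1 at 0.71 and Cd44 at 0.50, with the vascular growth factor Vegfa at -0.33. In knockout 5 of the 12 rose, where 2.76% of all genes did, and in wild type 3, where 1.36% did. Mmp9 is also on the neutrophil list, Hmox1 is also counted on the list of Nrf2 genes that follows, and several of these genes answer to other factors. Of 10 genes known to be driven by Nrf2 with a small Maf partner, 10 were measured, and 8 rose and 0 fell on average, against the same shares, with a median of 0.94. Slc7a11 (2.83, adjusted p = 0.000617), Srxn1 (1.92, adjusted p = 0.00400) and Gclc (0.98, adjusted p = 0.00108) were among them, and 7 of the 10 rose in knockout against 2 in wild type (2.76% and 1.36% of all genes), a difference that the test of interaction did not pass for any gene. The lists were drawn up with earlier results of these data known, so their counts are no independent evidence of direction.

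The genes whose pattern over the 12 arrays was most like that of a risen member were found by Pearson correlation among all genes tested. The arrays fall into 4 groups that share the VILI change, so the values describe likeness only. For Fosl1 they were Pde12 (0.98), Sertad1 (0.98) and Fh1 (0.97), for Atf3 they were Nfil3 (0.96), Nrip1 (0.96) and Nmd3 (0.96), for Mafk they were Hk2 (0.97), Arid5a (0.96) and Rassf1 (0.95), and for Jun they were Ube2z (0.93), Foxn2 (0.89) and Lrrk2 (0.87). The lists for the 4 genes had no gene in common.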

How the data were processed

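The deposited table held log2 expression values of 45101 probe sets on 12 arrays, normalized by the authors. MAS5 and GCRMA are listed in the submitters' processing notes, without role, order or version, and the lowest and highest values were 0.67 and 15.9, so nothing further was done to the values. The 64 control probe sets were left out, and the filter kept the 23082 probe sets that exceeded an array's own median on 3 or more arrays. Among probe sets with a single symbol in the platform annotation, the one of highest mean over the arrays stood for its gene, which gave 10996 genes. Groups came from the sample titles, since the descriptions name a control animal for all samples. The limma package, version 3.58.1, in R 4.3.3 fitted 1 mean per group to all 12 arrays (8 residual degrees of freedom), with moderated variances and a mean-variance trend, for 6 two-sided comparisons, each adjusted over all genes at 0.05. SE and 95% intervals are those of the fitted comparison. The procedure was tested on simulated data with the spread drawn separately for each gene. That test does not cover spread shared between genes on single arrays, as seen for most members. The replicates are 3 mice per group by the series design. Deviations of same-numbered arrays from their group means correlated at over 0.1 for 10 of 18 pairs, including the 3 pairs of knockout SB and wild type SB. For differently numbered arrays 7 of 36 pairs did so. The numbers were taken to pair the arrays in the comparison of knockout and wild type under SB alone. The reported fit holds no pairing, so the SE and p given for that comparison leave it out. There a block on the replicate number changed no member's call. That block was fitted to all 12 arrays, VILI groups included, so it does not give the result of pairing the SB arrays alone. The genes named were all members, the listed genes past the threshold for VILI, and the 3 genes most like each member that rose averaged over genotypes. The members and lists were chosen with earlier results of these data known.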

Additional observations from a re-analysis of the deposited data

Results flagged for a closer look

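Jun was singled out because its knockout arrays lay wholly above wild type under SB and wholly below wild type after VILI. Both margins were narrow. Under SB the lowest knockout array read 12.36 and the highest wild type array 12.33. After VILI the highest knockout array read 12.90 and the lowest wild type array 12.91. The response to VILI was -0.56 in knockout minus wild type (SE 0.18, limma unadjusted p = 0.0112, not past adjustment over all genes), from 0.18 in knockout and 0.74 in wild type. For the second probe set the same difference was -0.25 (SE 0.17, unadjusted p = 0.171). Its knockout and wild type arrays overlapped under SB, with a difference of -0.10.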

How the results depend on the processing

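The 4 members that rose averaged over genotypes kept their calls in all alternatives, and 0 members passed for the genotype comparisons and the interaction throughout. The other counts of members moved. In wild type the count was 3 with the replicate number as a block and 2 with only the arrays of the groups compared, and 0 to 2 when 1 array was left out. In knockout it was 2 with the block, 0 with no filter, with only the arrays compared or with array 3 of both knockout groups left out, and 0 to 3 when 1 array was left out. Averaged it was 6 with the block and 4 to 7 when 1 array was left out. The block brought Fosl1 (adjusted p = 0.0174) and Atf3 (0.0401) past the limma threshold in wild type, Atf3 in knockout (0.0495), and Fos (0.0341) and Junb (0.0468) averaged; outside knockout against wild type in SB the samples share only a number. Fosl1 in wild type also passed with only the arrays compared (0.0397) and without knockout VILI replicate 1 (0.0435) or 2 (0.0303), and in knockout it was lost with array 3 of both knockout groups left out (0.117). The cause of these moves was not tested.

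Over all genes, 290 passed in wild type, against 112 with no filter, 475 with only the arrays compared, 653 without array 3 of both knockout groups, 442 with the block and 19 to 487 when 1 array was left out. In knockout 491 passed, against 306, 11 and 110 under the same first 3 alternatives and 69 to 713 when 1 array was left out. Averaged 1958 passed, and 1128 to 2084 when 1 array was left out, and for knockout after VILI 11 passed, and 8 to 42 when 1 array was left out. The share of calls that were higher was 51.4% in wild type, 61.9% in knockout and 47.3% averaged, against 44.2%, 51.9% and 36.6% with arrays centred on their medians and 40.4%, 51.0% and 36.7% with quantile normalization.

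Only differences that did not pass changed sign. Without array 3 of both knockout groups, Fosl2 was -0.13 for VILI in knockout. For knockout in SB, Fosl1 was 0.15, Junb -0.0145 and Maff 0.24. For knockout in VILI, Fos was -0.20 and Jund 0.00498. For the interaction, Fos was -0.58, Fosl2 -0.34 and Maff -0.077. With arrays centred, knockout in SB was -0.049 for Fos, -0.0197 for Junb and -0.0298 for Atf3, and knockout in VILI was -0.033 for Fos. With quantile normalization, knockout in VILI was 0.0112 for Jund.

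Leaving out 1 array gave these ranges for the differences that changed sign. For VILI in knockout they were -0.12 to 0.88 for Fosl2 and -0.062 to 0.47 for Jund. For VILI in wild type they were -0.12 to 1.11 for Fosb, -0.15 to 0.78 for Fosl2, -0.16 to 0.92 for Junb and -0.16 to 0.036 for Jund. Averaged, Jund gave -0.058 to 0.21. For knockout in SB they were -0.65 to 0.65 for Fos, -1.13 to 0.096 for Fosb, -0.62 to 0.50 for Fosl1, -0.28 to 0.73 for Fosl2, -0.53 to 0.55 for Junb, -0.62 to 1.12 for Atf3 and -0.75 to 0.42 for Maff. For knockout in VILI they were -0.22 to 0.52 for Fos, -0.58 to 0.95 for Fosl1, -0.084 to 0.090 for Jund and -0.12 to 0.26 for Maff. For the interaction they were -0.61 to 0.68 for Fos, -0.47 to 1.05 for Fosl1, -0.35 to 0.67 for Fosl2, -0.0088 to 0.52 for Jund, -1.47 to 0.28 for Atf3, -0.32 to 0.85 for Maff and -0.12 to 0.21 for Mafk. With 3 arrays a group, intervals for most members span more than 1 log2 unit, and Fosb and Fosl1 under SB lie near the dim end of the scale.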
